A study of Drosophila melanogaster with 12 samples.

Results

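The RNA of 2 immunoprecipitates was compared gene by gene to ask what else an antibody against Slam recovered beside slam itself. The comparison covered 7466 of the 15682 genes in the count table, chosen because their mean normalized count over the 7 antibody libraries was at least 50. Extracts came from whole wild-type Drosophila embryos of 1.5 to 3 h, with no transgene or mutation named, and every library of the comparison shared this genotype and age. The 3 libraries of the first group (Slam 1 to Slam 3) held RNA bound by guinea pig antibody to Slam on Protein A beads. The 4 control libraries (Dia 1 to Dia 4) held RNA bound by guinea pig antibody to Dia. A second experiment of the series supplied reference values only. It used the GFP-binder on extracts of GFP-slam embryos (2 libraries) and wild-type embryos (3 libraries), and it shares no library with the antibody experiment. The study's methods call the sequenced replicates biological, while the labels do not say which embryo collections they came from, and p-values measure the spread between these libraries.

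Slam is a protein of the furrow canal, the tip of the membrane that grows inward between nuclei when the syncytial Drosophila embryo turns into an epithelium. Dia belongs to the formins, proteins that build unbranched actin filaments, and works in the same furrows. At this age maternal mRNAs are still abundant while the zygotic genome is being switched on, so that a precipitate can hold stored maternal transcripts, fresh zygotic transcripts and nuclear RNAs side by side. RNA of the unprecipitated extract was not analysed here, and each value below compares bound RNA with bound RNA. Extracts were of whole embryos, so that a transcript in fewer cells cannot be told apart from less of it per cell.

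Library totals were 25077683 to 31647090 counts with the Slam antibody and 4383704 to 21220787 with the Dia antibody, the lowest being Dia 3. Levels are CPM, counts scaled to a common library size after TMM normalization, and enrichment is the fitted log2 ratio of Slam antibody over Dia antibody. Correlations of log2 CPM were 0.944 to 0.956 among the Slam antibody libraries, 0.9 to 0.94 among the Dia antibody libraries and 0.837 to 0.912 between the groups. Of 12 markers of pole cells and early blastoderm, 0 lacked counts, and their summed level was 1949 to 2360 CPM with the Slam antibody and 2082 to 2984 CPM with the Dia antibody. Of 24 eggshell genes of follicle cells, 10 had no count in any library, among them the chorion genes Cp16, Cp19, Cp36 and Cp38. The summed level of the 24 was 251 to 546 and 223 to 329 CPM. Of 36 differentiation genes of later embryos all had counts, at a summed level of 638 to 1815 CPM with the Slam antibody and 514 to 3596 CPM with the Dia antibody. The muscle gene Mhc stood at 1351 CPM in Dia 1 and 383 CPM in Dia 2, against 75.5 and 62.7 CPM in Dia 3 and Dia 4, and its ratio (log2 of -1.41) did not pass (adjusted p = 0.531 from edgeR). Act57B, a muscle actin, stood at 480, 224, 57.0 and 50.2 CPM in the same order.

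The Slam antibody precipitates held the wider range of transcripts. Genes with a count numbered 11115 to 12486 per Slam antibody library and 8129 to 9757 per Dia antibody library. Depth differed between the groups, so the number expected at the depth of the smallest library, 4383704 counts, was calculated for each. It was 10707, 10632 and 10949 in Slam 1 to Slam 3 and 9237, 8988, 8129 and 8914 in Dia 1 to Dia 4. The groups did not overlap, and the means of 10763 ± 166 (SD, n = 3) and 8817 ± 479 (SD, n = 4) differed in an exact permutation test (two-sided p = 0.0286, the smallest that 35 arrangements can give). slam alone took 10%, 3.76% and 3.37% of all counts in Slam 1, Slam 2 and Slam 3, and between 0.0349% and 0.14% in the Dia antibody libraries.

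Of the 7466 genes, 511 (6.84%) were higher and 270 (3.62%) lower with the Slam antibody at an adjusted p under 0.05 by edgeR's quasi-likelihood test. Scaling by library totals gave 452 and 409, which moves the share of calls that were higher from 65.4% to 52.5%. With replicate numbers as blocks the counts were 782 and 636. Each Slam antibody library moved the counts, which were 328 and 120 without Slam 1, 285 and 24 without Slam 2, and 311 and 75 without Slam 3. Without Dia 1 they were 339 and 151, and without Dia 4 they were 562 and 445. The bulk of the transcriptome lay near equality, with a median log2 ratio of -0.03 and quartiles of -0.36 and 0.42. A fitted ratio above 4-fold was reached by 411 genes (5.5%), of which 262 (3.51%) also passed the test, and only 18 genes were more than 4-fold lower. Groups did not overlap in 2044 genes (27.4%), among them 762 of the 781 that passed.

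The minimum level admits genes through the group where they are high. The Slam antibody mean alone reached 50 normalized counts in 431 genes, of which 117 were called higher, while the Dia antibody mean alone reached it in 21. Over the 7014 genes with both means at 50 or more, 394 (5.62%) were higher and 270 (3.85%) lower, and 145 were more than 4-fold higher and passed. A minimum set instead in the wild-type GFP-binder libraries, which do not enter the ratio, was added after the data were seen. It kept 6872 genes, of which 435 were higher and 279 lower.

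slam was the most abundant transcript with the Slam antibody, and Slam 1 held far more of it than the other libraries. It stood at 119176, 36523 and 32099 CPM in Slam 1 to Slam 3 and at 1443, 482, 939 and 347 CPM in Dia 1 to Dia 4. The groups were far apart, with a log2 ratio of 6.29 (SE 0.767, adjusted p = 0.00421 from edgeR), or 5.38 without Slam 1. dia, the transcript of the control antigen, ran the other way. It stood at 188, 144 and 233 CPM in Slam 1 to Slam 3 and at 3364, 1493, 2708 and 665 CPM in Dia 1 to Dia 4, a log2 ratio of -3.45 (SE 0.545, adjusted p = 0.00664 from edgeR). Each antibody thus held more of the mRNA of its own antigen than the other did. Because the ratio sets the 2 antibodies against each other, a lower value can come from more RNA with the Dia antibody as well as from less with the Slam antibody.

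Behind slam, the next 5 transcripts by mean level with the Slam antibody were eIF3-S10, a subunit of translation initiation factor eIF3, the uncharacterized CG14749, the endocytic adaptor Hip1, the splicing factor crn (crooked neck) and the elongation factor Ef1alpha48D. The first of these, eIF3-S10, stood at 38787, 17596 and 11741 CPM in the Slam antibody libraries and at 871, 756, 1028 and 1760 CPM in the Dia antibody libraries. This was 20.6-fold (log2 of 4.36, SE 0.454, adjusted p = 0.000309 from edgeR), with log2 of 3.70 without Slam 1. crn stood at 9814, 8539 and 6944 CPM against 623, 121, 201 and 85.6 CPM. Its ratio was 32.7-fold (log2 of 5.03, SE 0.754, adjusted p = 0.0106 from edgeR). Dia 1 was the highest control library for crn, and without it the log2 ratio was 5.96, while without Slam 3 the gene missed the threshold (adjusted p = 0.0571 from edgeR). Ef1alpha48D differed from the rest of these in being lower with the Slam antibody: 6493, 6127 and 7093 CPM against 10261, 10888, 14063 and 13018 CPM (log2 of -0.88, adjusted p = 0.0175 from edgeR, and 0.0987 at the highest when Slam 1 or Slam 2 was left out). By the mean over the Dia antibody libraries Ef1alpha48D was the most abundant transcript, followed by Magi, CG7185, the elongation factor EF2, 1 gene known by its identifier only and the cyclin gene CycB. The places of Magi and CG7185 rest on Dia 1, where they reached 20553 and 21280 CPM, against at most 6341 and 3752 CPM in the other libraries.

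**Figure D1:**
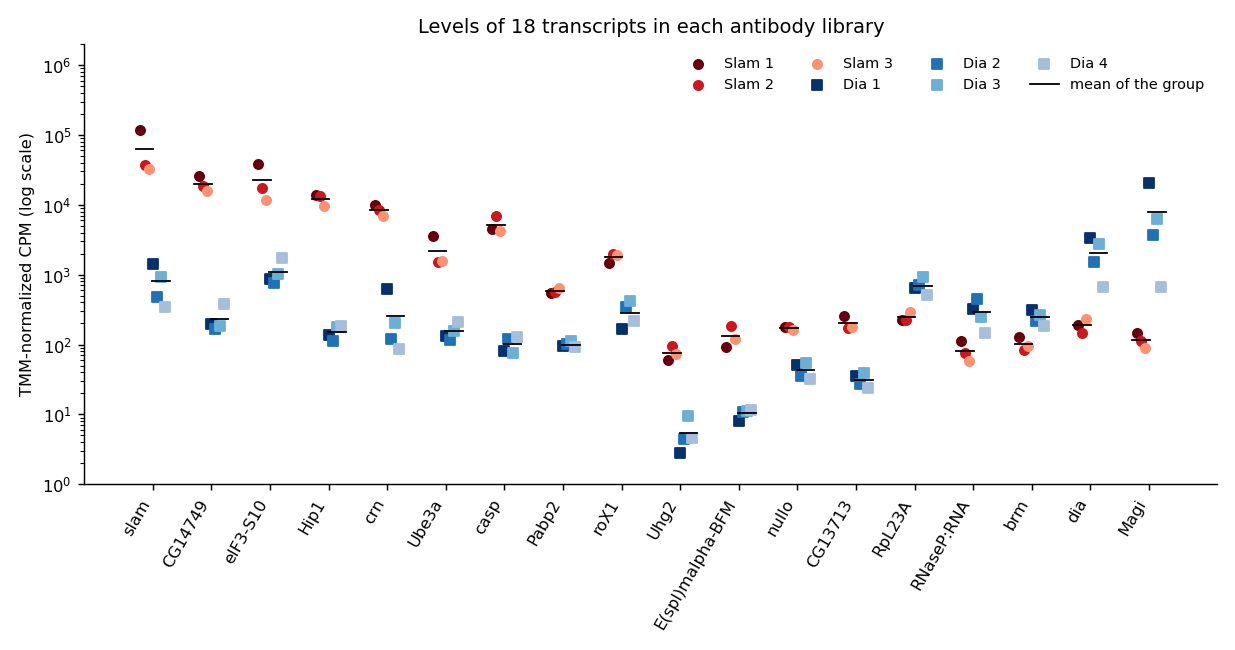
TMM-normalized CPM (log scale) of 18 transcripts in the 3 Slam antibody libraries (circles in shades of red) and the 4 Dia antibody libraries (squares in shades of blue), with the mean of each group as a black line. slam, eIF3-S10 and Ube3a were highest in Slam 1, roX1, Uhg2 and E(spl)malpha-BFM were highest in Slam 2, and Magi spread from 665 to 20553 CPM over the Dia antibody libraries.

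The 12 highest ratios among genes that passed without overlap fell into 2 kinds by level. CG14749, Hip1, slam and casp (an inhibitor of immune signaling) were abundant with the Slam antibody, at 4273 CPM or more in every library. CG14749 stood at 25800, 18515 and 15513 CPM against 194, 166, 182 and 385 CPM, and casp at 4446, 6848 and 4273 CPM against 80.2, 120, 76.6 and 129 CPM. The other 8 were scarce or close to undetected in the controls. Apart from CG30069, they averaged 0.0117 to 0.849 CPM there and were admitted only through their level with the Slam antibody. Such selection favours high ratios, so their rank is not set beside that of the abundant genes. Among the 8 were the noncoding genes CR43995 and CR43765, at 4.32, 10 and 9.59 CPM and at 4.22, 11.8 and 12.7 CPM with the Slam antibody. CR43995 had 694 counts with the Slam antibody and 1 count with the Dia antibody, a ratio of 470 with an exact 95% interval of 84.1 to 18591 that covers counting error only. CG30069 was the best measured of the 8 at 309, 317 and 71.1 CPM against 5.30, 10.3, 2.89 and 0.656 CPM. Its log2 ratio of 5.57 (SE 0.981, adjusted p = 0.0216 from edgeR) missed the threshold without Slam 1, Slam 2 or Dia 3, with 0.0643 as the highest adjusted p. CG4374 stood at 108, 50.5 and 24.5 CPM against 2.30, 0.827, 0.223 and 0.0468 CPM, and missed the threshold without Dia 2 (adjusted p = 0.0507 from edgeR). The remaining 4, CG8157, CR43051, snoRNA:Psi18S-920 and 1 gene known by its identifier only, had log2 ratios of 5.54 to 6.30 with SEs of 1.04 to 1.21. snoRNA:Psi18S-920 had counts in all 4 Dia antibody libraries and was highest in Slam 3, at 2.94, 3.84 and 25.2 CPM in Slam 1 to Slam 3. The ratios of the others turn on single control libraries. The controls held 6 counts of CG8157, all in Dia 4, and 5 counts of CR43051, all in Dia 1, so that without that library the fitted ratio has no count to rest on. The log2 ratio of the gene known by its identifier, with 17 control counts, was 8.37 without Dia 4, and that of CR43765, with 9, was 6.72 without Dia 4.

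Level in an independent precipitate sorted the calls. The wild-type GFP-binder libraries do not enter the ratio, and the genes were divided into 5 classes of equal size by their mean CPM there, at 11.1, 36.0, 75.7 and 162 CPM. In the lowest class 211 of 1459 genes (14.5%) were higher and 7 (0.48%) lower, with a median log2 ratio of 0.77. In the highest class 53 of 1459 (3.63%) were higher and 116 (7.95%) lower, with a median of -0.28. The medians of the classes between were 0.07, -0.06 and -0.16, so that the order was kept across all 5. The lowest class is the one most open to selection by the minimum level, since only 1037 of its genes had both group means at 50 or more. Among those, 109 were higher and the median was 0.43. Protein-coding genes alone gave medians of 0.76, 0.06, -0.07, -0.16 and -0.28. The 2 experiments were counted on different annotations for some genes, so this level is a description and not a calibrated abundance.

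**Figure D2:**
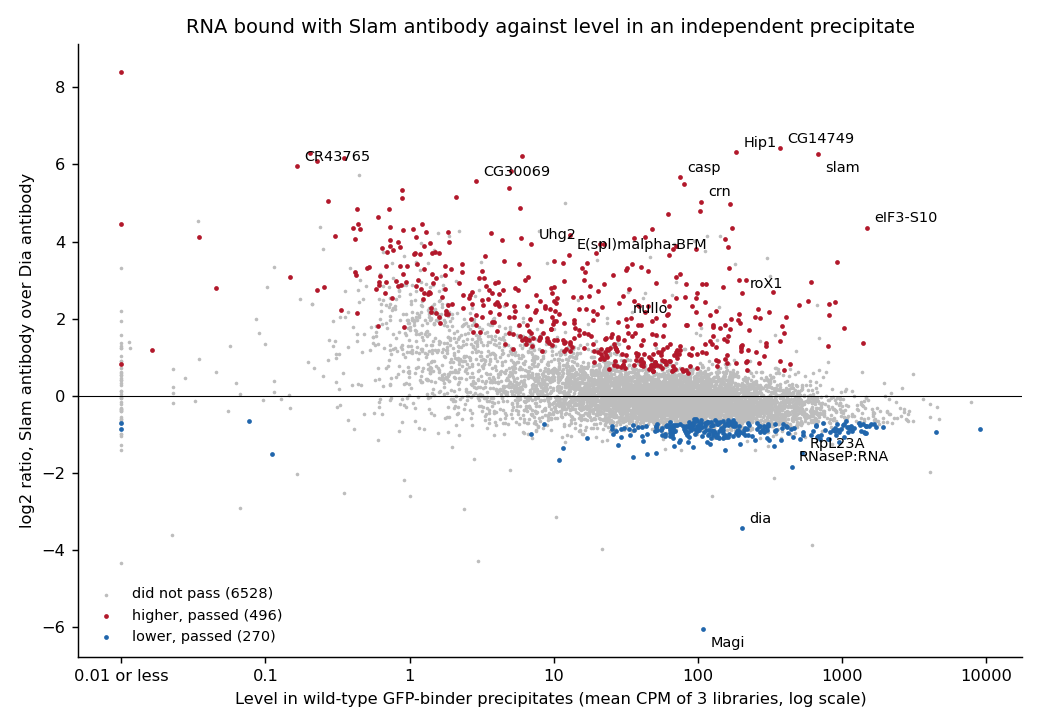
log2 ratio of Slam antibody over Dia antibody against the level in wild-type GFP-binder precipitates (mean CPM of 3 libraries, log scale, values at or under 0.01 drawn at 0.01), 1 point per gene, with genes that passed as higher in red and as lower in blue. Red points cover the whole range of levels, blue points lie mostly at higher levels, and slam, CG14749 and Hip1 stand out among abundant transcripts.

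The transcripts above 4-fold also differed in which Slam antibody library held them at the highest level. Of the 56 with a wild-type GFP-binder level of 50 CPM or more, 42 were highest in Slam 1, 8 in Slam 2 and 6 in Slam 3. Of the 203 below 50 CPM, 55 were highest in Slam 1, 101 in Slam 2 and 47 in Slam 3. Abundant transcripts were thus mostly highest in Slam 1, as was slam, itself 1 of the 56, while scarce ones were most often highest in Slam 2. Sums over all genes of a level class had their highest library in the same place. They were 204478, 178484 and 168243 CPM in Slam 1 to Slam 3 at 75.7 to 162 CPM. In the lowest class they were 21109, 24341 and 19875 CPM. The order was therefore not particular to the transcripts above 4-fold. The counts of highest libraries were not tested against each other.

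**Figure D3:**
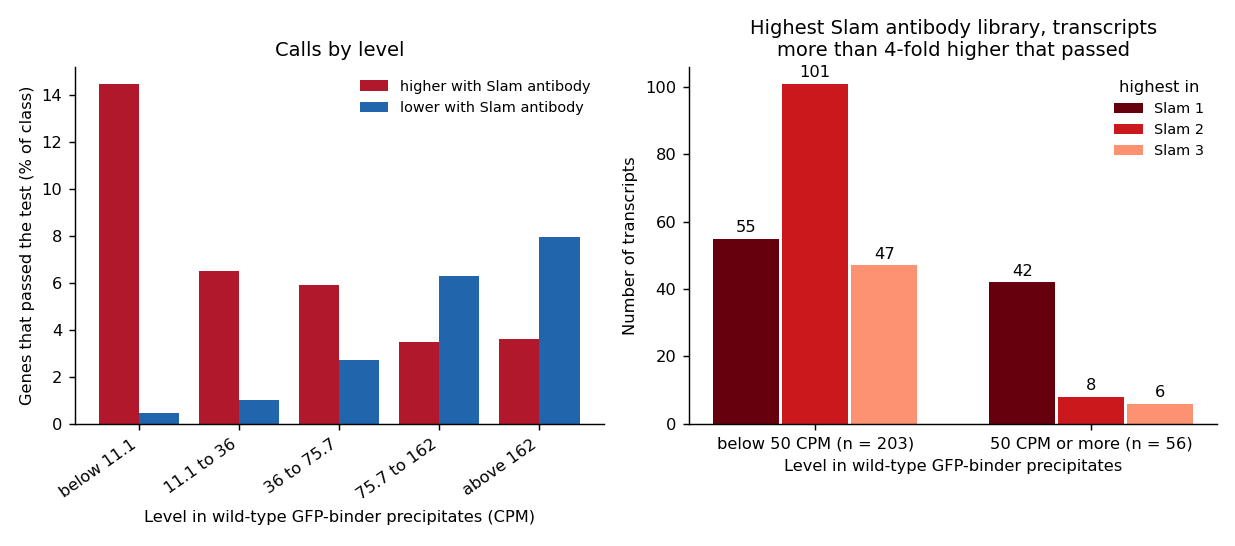
Left, share of genes (%) that passed as higher (red) or lower (blue) with the Slam antibody in 5 classes of the level in wild-type GFP-binder precipitates (CPM). Right, number of transcripts more than 4-fold higher that passed, by the Slam antibody library in which they were highest, below 50 CPM (n = 203) and at 50 CPM or more (n = 56). Higher calls fell from 14.5% to 3.63% and lower calls rose from 0.48% to 7.95% from the lowest to the highest class, and Slam 1 was the highest library for 42 of the 56 abundant transcripts.

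By annotated gene type (RefSeq, Release 6), long noncoding, snoRNA and snRNA genes had higher median ratios than mRNAs. The snRNA genes nevertheless passed at about the rate of all genes (8.33% higher). Of 7062 protein-coding genes 446 were higher and 264 lower, with a median log2 ratio of -0.04. Of 45 long noncoding RNA genes 17 were higher and 0 lower, with a median of 1.43, or 0.59 over the 30 with both group means at 50 or more, of which 8 were higher. Of 59 snoRNA genes 25 were higher and 0 lower, with a median of 3.34. Both group means reached 50 in 29 of these, of which 6 were higher, with a median of 2.62. Of 12 snRNA genes 1 was higher and 0 lower, and the groups overlapped in all 12. Their median was 1.44, with 10 ratios positive, or 0.98 over the 7 with both group means at 50 or more. The summed level of the snRNA genes averaged 1991 CPM with the Slam antibody and 4745 CPM with the Dia antibody. Of this, snRNA:7SK alone made up 1088 and 4284 CPM. Genes named by CR number, mostly noncoding, had a median of 0.33, with 11 of 68 higher and 2 lower, and 2 of the 11 were among the 48 with both group means at 50 or more (4 higher without Slam 2 or Slam 3). In 5 classes of gene span the shortest, up to 1385 bases, held 160 of the genes above 4-fold against 55 to 76 in each of the others, while the medians ranged from -0.05 to 0.01. The long chromosome arms and X were alike, with medians of -0.08 to 0 and 5.93% to 7.68% of genes higher. On chromosome 4 the median was 0.51, with 10 of 71 genes (14.1%) higher and 1 lower. Uncharacterized genes named by CG number lay close to the whole, with 184 of 2976 higher and a median of 0.01 (119, 93 and 114 higher without Slam 1, Slam 2 and Slam 3).

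All 4 long noncoding RNAs of a list of nuclear RNAs were higher with the Slam antibody. They are roX1 and roX2, which guide the dosage compensation complex to the male X, Hsromega, a scaffold of nuclear speckles, and bxd, transcribed from the bithorax complex. roX1, the most abundant, stood at 1472, 1986 and 1905 CPM against 169, 343, 413 and 215 CPM, with no overlap. Its ratio was 6.28-fold (log2 of 2.65, SE 0.301, adjusted p = 0.000201 from edgeR). Hsromega stood at 248, 305 and 347 CPM against 30.8, 61.0, 45.0 and 39.1 CPM, and roX2 at 30.3, 67.1 and 40.4 CPM against 2.86, 4.83, 4.45 and 2.58 CPM, with log2 ratios of 2.77 and 3.66. bxd passed at a log2 ratio of 2.23 (adjusted p = 0.0196 from edgeR) but not without Slam 2, Slam 3 or Dia 1, with 0.103 as the highest adjusted p.

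The host genes of small nucleolar RNAs, whose introns encode RNAs that guide modification of ribosomal RNA, showed ratios of the same order. Of 7 Uhg genes listed, 6 were tested and 5 were higher, with a median log2 ratio of 3.21, and 3 of the 5 were among the 4 with both group means at 50 or more. Uhg2 stood at 60, 96.8 and 73.5 CPM against 2.79, 4.39, 9.57 and 4.59 CPM, a 15.3-fold difference (SE 0.364 in log2 units, adjusted p = 6.12e-05 from edgeR). Uhg5 was 8-fold and Uhg4 11.3-fold higher. Uhg1 was 6.02-fold higher but missed the threshold without Dia 2 or with no minimum level (highest adjusted p = 0.0569 from edgeR). Slam 2 or Slam 3 was the highest library for each of these 4 genes.

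Small nuclear and nucleolar RNAs were uneven between libraries. Of 356 listed, 72 were tested, 36 of them with both group means at 50 or more. In all 26 were higher and 0 lower, but only 6 of the 26 were among the 36, and the median log2 ratio was 3.12. The groups did not overlap in 16 of the 72, beside 2044 of 7466 (27.4%) over all genes tested. Within the Slam antibody the median of the list against the control mean was 2.21 in Slam 1, 0.08 in Slam 2 and 3.38 in Slam 3, and the number higher was 9 without Slam 1, 38 without Slam 2 and 5 without Slam 3. It was 6, 6 and 11 without Dia 1, Dia 2 and Dia 4. snoRNA:Psi18S-531, which had the most counts of those named, stood at 60.2, 23.5 and 94.2 CPM against 5.65, 3.50, 6.68 and 1.87 CPM (log2 of 3.81, adjusted p = 0.0024 from edgeR). In the GFP-binder experiment the median of the list was -2.20, with 0 members higher and 0 lower at the threshold. The strand setting of the counting is not given in the sources used here, and reads of a snoRNA and of its host intron cannot be told apart.

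Short zygotic genes expressed in the blastoderm were higher as well. All 7 tested members of the Bearded family, small inhibitors of Notch ligand signaling, were higher, with a median log2 ratio of 2.33 against -0.55 in the GFP-binder experiment. E(spl)malpha-BFM stood at 90.8, 181 and 121 CPM against 7.95, 11.0, 11.4 and 11.4 CPM, a 12.6-fold difference (log2 of 3.66, SE 0.263, adjusted p = 7.54e-06 from edgeR). Brd stood at 225, 497 and 371 CPM against 36.0, 60.9, 91.9 and 78.9 CPM. Ocho and Tom were 5.04-fold and 3.35-fold higher, and Slam 2 was the highest library for all 4. The 7 bHLH genes of the E(spl) complex, repressors that act downstream of Notch and neighbours of several Bearded genes, were picked out after their values were seen. All 7 passed as higher, with a median of 2.13 against -1.08 in the GFP-binder experiment. E(spl)mbeta-HLH stood at 59.3, 48.6 and 46.3 CPM against 5.02, 6.11, 5.56 and 5.29 CPM, and E(spl)m8-HLH at 30.9, 52.6 and 54.3 CPM against 2.58, 4.96, 8.90 and 5.90 CPM.

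Other early zygotic genes followed to a lesser degree. Of 8 early zygotic cellularization genes tested 3 were higher, slam, nullo and halo, and all 8 ratios were positive, with a median of 1.48 (5 higher with replicate numbers as blocks). The list holds slam itself, the target of the antibody. nullo, which stabilizes the furrow, stood at 176, 175 and 159 CPM against 50.1, 35.8, 53.9 and 31.8 CPM. Its ratio was 3.99-fold (SE 0.217 in log2 units, adjusted p = 0.000148 from edgeR). halo, which directs lipid droplet transport, was 3.32-fold higher. In a list of 17 early zygotic genes of other function 9 were higher, with a median of 1.57. CG13713 stood at 257, 175 and 180 CPM against 35.1, 27.2, 39.0 and 24.1 CPM (6.55-fold, adjusted p = 2.98e-05 from edgeR), and CG13711, comm2, a gene of the commissureless family, and Ilp4, an insulin-like peptide, were 4.51-fold, 5.74-fold and 5.49-fold higher. sisA, an X-linked counting element of sex determination, was the 1 member of 9 in its list that passed, at 139, 105 and 113 CPM against 28.2, 13.4, 29.2 and 19.6 CPM (2 members passed with blocks and without Dia 1 or Dia 3).

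Patterning genes divided by axis only in degree, and the difference between the 2 lists was not tested. Of 37 dorsal-ventral genes tested 10 were higher and 0 lower, with a median log2 ratio of 0.81 (16 with replicate numbers as blocks; 5, 5 and 6 without Slam 1, Slam 2 and Slam 3; 5 and 4 without Dia 1 and Dia 2). The homeobox gene zen2 stood at 126, 110 and 91.0 CPM against 25.7, 15, 29.6 and 19.1 CPM (4.91-fold, adjusted p = 0.000143 from edgeR). tsg, an extracellular regulator of BMP signaling, was 4.71-fold and egr, the fly TNF ligand, 2.82-fold higher. Of 37 anterior-posterior genes 3 were higher, the transcription factor genes slp1, h and hkb, and 1 was lower, fkh, with a median of 0.40 (7 and 2 with replicate numbers as blocks). The share higher was 8.11% here and 27.0% in the dorsal-ventral list, against 6.84% over all genes. slp1 stood at 86.1, 95.5 and 91.7 CPM against 27.3, 26, 45.4 and 20.7 CPM (3.09-fold, adjusted p = 0.00212 from edgeR), and h was 2.76-fold higher. hkb missed the threshold without Slam 1 (adjusted p = 0.056 from edgeR). fkh, which stood at 5.93, 8.84 and 8.76 CPM against 13.1, 19, 33.2 and 16.7 CPM, missed it without Slam 1, Slam 2, Slam 3 or Dia 3 (0.115 at the highest). In the GFP-binder experiment the medians of these 2 lists were -0.41 and -0.42.

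**Figure D4:**
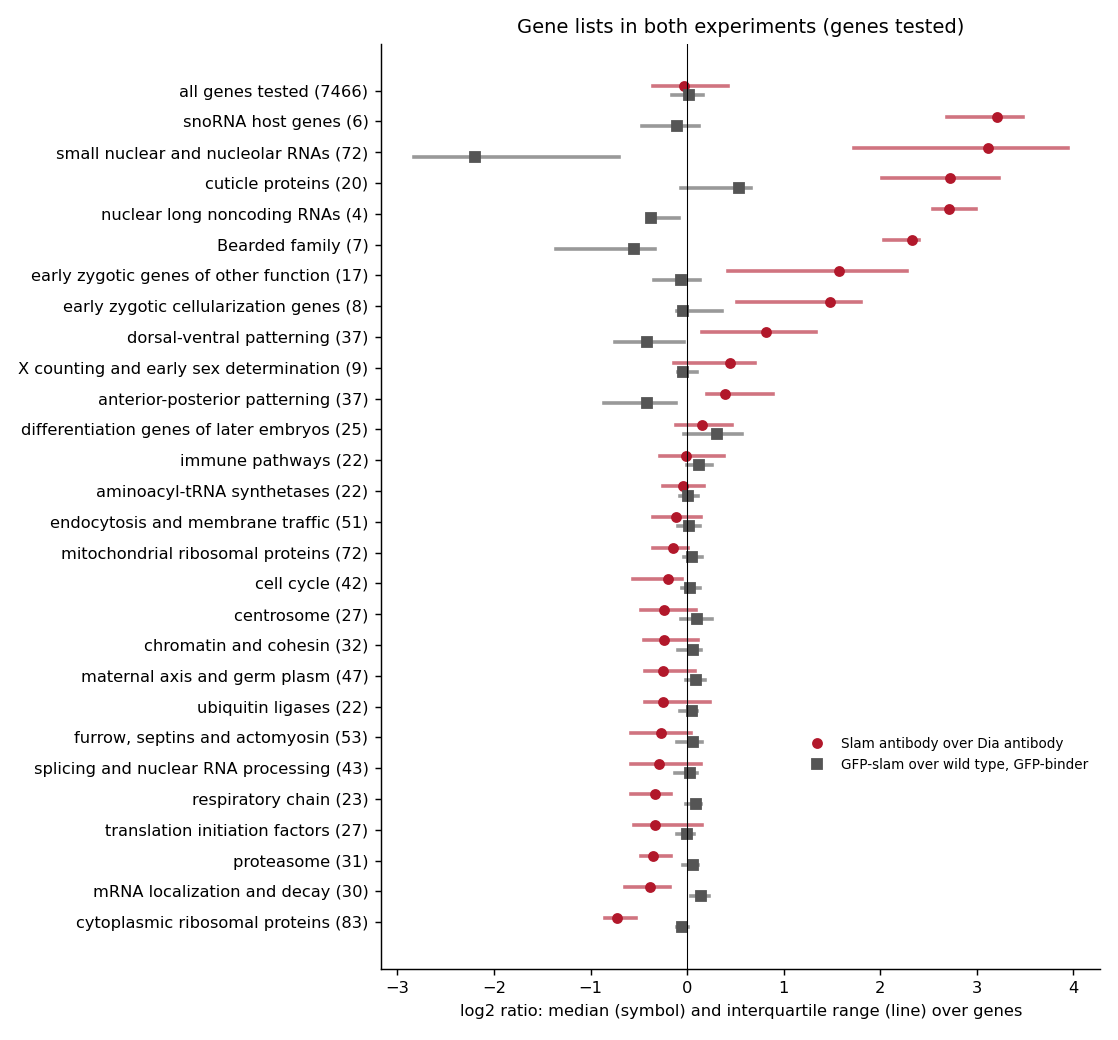
Median log2 ratio (symbol) and interquartile range (line) over the tested genes of 27 lists and of all genes, for Slam antibody over Dia antibody (red circles) and, from separate libraries, GFP-slam over wild type with the GFP-binder (grey squares). The noncoding lists, cuticle proteins, the Bearded family and the zygotic lists have higher medians in red than in grey, and cytoplasmic ribosomal proteins lie at -0.72 in red and -0.06 in grey.

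Transcripts from lists of genes taken here as later in development were also present at low level. Of 120 cuticle protein genes 20 passed the minimum level, only 10 of them with both group means at 50 or more. All 20 ratios were positive and 5 passed, 0 of them among the 10, so that each call is of a gene admitted through its level with the Slam antibody (12 passed with replicate numbers as blocks, 2 without Slam 2, 2 without Dia 1, 3 without Dia 3). Their summed level was 102, 818 and 167 CPM in Slam 1 to Slam 3 and 40.3, 159, 13.6 and 37.5 CPM in Dia 1 to Dia 4, so that replicate 2 was highest in both groups and the groups overlapped. Cpr50Ca stood at 13.0, 33.9 and 33.0 CPM against 1.33, 0, 0.223 and 1.78 CPM (adjusted p = 0.013 from edgeR). Lcp65Ac was highest in Slam 2, at 0.901, 20.8 and 3.25 CPM against 0.14, 0, 0 and 0.515 CPM, and missed the threshold without Dia 1 or Dia 3 (0.0743 at the highest). The odorant-binding protein gene Obp99a was even across libraries, at 77.7, 65.5 and 63.7 CPM against 19.9, 11.6, 10.7 and 15.1 CPM (4.77-fold, adjusted p = 0.000153 from edgeR). Of 25 differentiation genes of later embryos 3 were higher, the GATA factor srp, the glutamate transporter VGlut and the claudin kune, and the median of 0.15 was close to that of all genes. With 1 library left out 1 to 4 of the list passed, 1 without Slam 2. Of the genes that passed, srp was 2.77-fold higher and stood at 17.7 CPM or more in every library of both groups. kune missed the threshold without Slam 2, and VGlut missed it without Slam 1, Slam 2, Dia 1, Dia 3 or Dia 4 (0.19 at the highest).

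Several functional lists of maternally supplied mRNAs held a few strongly enriched members in a list that otherwise lay slightly below equality. Others, among them cell cycle, mRNA localization and decay, and maternal axes and germ plasm, had 0 higher calls. Of 53 genes of furrow, septins and actomyosin 5 were higher and 3, dia among them, lower, with a median of -0.27 (5 and 13 with replicate numbers as blocks). These are 9.43% and 5.66% of the list, against 6.84% and 3.62% over all genes. Mical, an actin-oxidizing enzyme, stood at 2523, 910 and 607 CPM against 141, 128, 156 and 122 CPM (log2 of 3.3, adjusted p = 0.00107 from edgeR), with log2 of 2.45 without Slam 1. Patj and sdt, partners in the apical Crumbs complex, were 4.32-fold and 2.52-fold higher. Lower calls in the list numbered 1 to 7 when a library was left out, with 1 without Slam 2 and 7 without Dia 4, and higher calls were 3 without Dia 3.

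Of 51 genes of endocytosis and membrane traffic 6 were higher and 3 lower, with a median of -0.11. Hip1 stood at 13874, 13198 and 9553 CPM against 135, 111, 180 and 183 CPM. The others named were the reticulon Rtnl1 (8.01-fold), the golgin GCC185 (7.40-fold) and the syntaxin Syx16 (4.72-fold), which were 48.4 CPM or more in every Slam antibody library. The number higher stayed at 6 whichever library was left out, while the lower calls went to 0 without Slam 1, Slam 2, Slam 3 or Dia 1. Of 27 centrosome genes tested 2 were higher, Cep135 (14.7-fold) and ana1 (3.59-fold, with log2 of 1.21 in place of 1.84 without Slam 1), both of the centriole, and 0 were lower (3 with replicate numbers as blocks). Higher calls made up 11.8% of the endocytosis list and 7.41% of the centrosome list, the latter close to the 6.84% of all genes. The ubiquitin ligase Ube3a stood at 3573, 1526 and 1546 CPM against 132, 116, 156 and 211 CPM (14.4-fold, adjusted p = 5.73e-05 from edgeR). HERC2, another ligase, stood at 1177 CPM in Slam 1 and 325 CPM or less in Slam 2 and Slam 3, against 94.3, 141, 102 and 118 CPM, and its log2 ratio of 2.32 was 1.19 without Slam 1. HERC2 missed the threshold without any 1 of the Dia antibody libraries, with no minimum level and with replicate numbers as blocks (adjusted p = 0.0734 from edgeR).

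Among 43 genes of splicing and nuclear RNA processing 5 were higher and 4 lower, with a median of -0.29 (6 and 9 with replicate numbers as blocks). Lower calls were 1 without Slam 1, Slam 2, Slam 3 or Dia 1, and higher calls 3 without Slam 3. Pabp2, the nuclear poly(A)-binding protein, stood at 538, 557 and 638 CPM against 95.1, 102, 112 and 91.3 CPM (5.78-fold, SE 0.194 in log2 units, adjusted p = 1.3e-05 from edgeR). Ice1, of the complex that transcribes snRNA genes, and ZC3H3 were 8.85-fold and 8.47-fold higher. In chromatin, 3 of 32 genes were higher and 4 lower (8 lower with replicate numbers as blocks, 0 without Slam 2, 1 without Slam 3 and 2 without Dia 1). Shares higher and lower were 9.38% and 12.5% in chromatin and 11.6% and 9.3% in splicing, against 6.84% and 3.62% over all genes. The CREB coactivator Crtc was 4.99-fold and lilli, of the AF4 family of elongation factors, 7.46-fold higher, the latter at log2 of 1.91 in place of 2.90 without Slam 1. Nipped-B, which loads cohesin, stood at 5304, 3881 and 5323 CPM against 510, 565, 601 and 2100 CPM, and missed the threshold without Slam 1, Slam 3 or Dia 3 or with no minimum level (0.112 at the highest), with log2 of 3.11 in place of 2.36 without Dia 4. brm, the SWI/SNF ATPase, was 2.40-fold lower at 126, 84.5 and 94.2 CPM against 308, 219, 266 and 183 CPM, and missed it without Slam 2 (adjusted p = 0.051 from edgeR). Of 27 translation initiation factors tested 2 (7.41%) were higher and 1 lower, with a median of -0.34 (4 lower with replicate numbers as blocks). The higher ones were eIF3-S10 and a second eIF3 subunit, eIF3-S9 (5.17-fold). The eIF3 genes eIF3-S8, eIF-3p66 and eIF-3p40 did not pass, at log2 of 0.16, -0.06 and -0.53. eIF-4a, the RNA helicase of initiation, was 1.75-fold lower. It missed the threshold without Slam 1, Slam 2 or Dia 1 (0.118 at the highest).

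On the other side, the mRNAs of the ribosome were lower as a body. For comparison, in the highest class of wild-type GFP-binder level 7.95% of all genes were lower and the median was -0.28. Of 83 cytoplasmic ribosomal protein genes tested 40 were lower and 0 higher, 82 of the 83 ratios were negative, and the median log2 ratio was -0.72 against -0.06 in the GFP-binder experiment. Together they made up 49461, 59017 and 64857 CPM in Slam 1 to Slam 3 and 79033, 84393, 114023 and 88068 CPM in Dia 1 to Dia 4, so that every Slam antibody library lay below every Dia antibody library. RpL23A stood at 227, 221 and 294 CPM against 638, 719, 918 and 516 CPM, a 2.82-fold difference (log2 of -1.50, SE 0.243, adjusted p = 0.0031 from edgeR). RpS26, RpS20 and RpS13 were 2.29-fold, 2.20-fold and 2.17-fold lower. The median stayed between -0.85 and -0.64 over the alternatives, but the number lower was 7, 5 and 22 without Slam 1, Slam 2 and Slam 3 and 27 without Dia 1 or Dia 3. With scaling by library totals the median was -0.79. The part that the share of counts taken by slam has in these ratios was not tested.

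Other housekeeping lists leaned the same way by less, and few of their members passed. Abundant genes in general leaned so too: the median was -0.28 in the highest class of wild-type GFP-binder level and -0.16 in the class below it. In the proteasome 29 of 31 ratios were negative with a median of -0.36, and only Rpn5 passed (1.67-fold lower). It missed the threshold without Slam 1, Slam 2, Slam 3 or Dia 1 (0.125 at the highest). In the respiratory chain 22 of 23 were negative with a median of -0.33 and 2 passed, ATPsyn-Cf6, a subunit of ATP synthase, being the lower at 60.9, 68.4 and 69.3 CPM against 131, 138, 156 and 106 CPM. With replicate numbers as blocks 4 proteasome and 6 respiratory genes passed as lower, and so did 4 and 6 without Dia 4, while 1 respiratory gene did without any other library. Mitochondrial ribosomal proteins lay at -0.14, with 1 of 72 higher, mRpL47 (3.09-fold), and 1 lower (6 with blocks, 4 without Dia 4), and 22 aminoacyl-tRNA synthetases at -0.04. His3.3B, a histone of the replacement type, was 2.02-fold lower and missed the threshold without Slam 1 (adjusted p = 0.0502 from edgeR).

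Among maternal regulators of translation and of the early cycles, the lower calls were few in number. They made up 13.3% of mRNA localization and decay, 7.14% of cell cycle and 4.26% of maternal axes and germ plasm. The share over all genes was 3.62%. In the highest class of wild-type GFP-binder level 7.95% of genes were lower, and in the class below it 6.31%. The shares of cell cycle and of maternal axes and germ plasm were thus no higher than that of the highest class. Of 30 genes of mRNA localization and decay 27 ratios were negative, with a median of -0.38, and 4 were lower: btz, of the exon junction complex, tral, a component of repressed mRNPs, Fmr1, the fragile X protein, and AGO1, of the miRNA pathway. tral stood at 1429, 1068 and 1105 CPM against 1822, 2267, 1760 and 2158 CPM, a 1.67-fold difference. None of the 4 passed without Slam 2, and with replicate numbers as blocks 9 of the list passed. Of 42 cell cycle genes 3 were lower, Bub3 of the spindle checkpoint, tws, a PP2A subunit, and endos, an inhibitor of that phosphatase (8 with blocks), each 1.71-fold to 1.90-fold, and 0 passed without Slam 1, Slam 2 or Slam 3. Of 47 genes of the maternal axes and germ plasm 2 were lower, orb, a translational regulator of the oocyte, and gnu, which acts in the first cycles (2 higher and 5 lower with blocks). orb and gnu missed the threshold without Slam 2 or Slam 3, and gnu also without Slam 1.

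Beyond dia and ribosomal proteins, the lowest ratios belonged to scattered genes. RNaseP:RNA, the RNA subunit that matures tRNA, stood at 111, 76.9 and 57.3 CPM against 328, 453, 250 and 147 CPM, 3.60-fold lower (adjusted p = 0.0119 from edgeR, and 0.0511 without Slam 2), in contrast to the nuclear RNAs above. DMAP1, a chromatin protein, was 2.85-fold lower at 26.7, 26.6 and 29.2 CPM against 86.8, 76.8, 97.7 and 52.8 CPM, and Mrtf, a cofactor of serum response factor, was 2.79-fold lower. The uncharacterized CG8677 and CG5514 were 2.66-fold and 2.54-fold lower. MED25, of the Mediator complex, and Ppcs, an enzyme of coenzyme A synthesis, were 3.04-fold and 3.18-fold lower, but both missed the threshold without Slam 1, Slam 2 or Slam 3, and MED25 also without Dia 1 or Dia 3. Magi stood alone in size. It stood at 147, 113 and 90.6 CPM in Slam 1 to Slam 3 and at 20553, 3713, 6341 and 665 CPM in Dia 1 to Dia 4. This was the same order of Dia antibody libraries as for dia, but slam had that order as well. The log2 ratio of Magi was -6.06 (SE 1.33, adjusted p = 0.0421 from edgeR), and -4.93 without Dia 1. It missed the threshold without Slam 1, Slam 2, Slam 3, Dia 2 or Dia 3 and at minimums of 10, 200 and none, with 0.17 as the highest adjusted p. CG7185 had the same order at 21280, 2097, 3752 and 638 CPM, but did not pass (log2 of -3.87, adjusted p = 0.12 from edgeR, and 0.0227 with replicate numbers as blocks). It also passed with DESeq2 and without Dia 4, and without Dia 1 its log2 ratio was -2.19. The noncoding CR40668, at 19.2, 7.95 and 7.55 CPM against 20.9, 33, 25.6 and 51.2 CPM, missed the threshold without Slam 2, Slam 3 or Dia 4 (0.144 at the highest). Among the 270 lower genes Dia 4 was the lowest Dia antibody library in 166 and the highest in 9.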

How the data were processed

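Guinea pig antibody to Slam or Dia on Protein A beads was incubated with cleared embryo extract, and the bound RNA was sequenced from TruSeq RNA libraries (HiSeq2000). Tools listed by the submitters' processing notes, with no role stated, were DESeq2, STAR (2.5.0), FastQC (0.11.4) and bcl2fastq (2.17.1.14). For the counter, its strand setting, the genome build and the gene models, nothing is given in the sources used here. Whole-number gene counts per library were deposited by the authors, not normalized. Deposited tables of the authors' own fold changes and adjusted p-values were not used.

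The 15682 genes were named from the table. 394 have no symbol, 1 identifier was corrected from its description, and 15100 were matched to RefSeq for gene type, arm and span. Sequences and exon numbers were not used here. edgeR 4.0.16 (R 4.3.3; TMM, glmQLFit robust, glmQLFTest) was fitted to the 3 Slam and 4 Dia libraries on genes with a mean normalized count of at least 50, with Benjamini-Hochberg adjustment and a threshold of 0.05. SE was obtained from the log2 ratio over the root of its F statistic. The GFP-binder libraries were fitted apart (minimum of 10). The scripts were tested on simulated data.

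The members and the 36 gene lists were chosen with earlier results of these data known. Lists are described by counts and medians with no set test, and 1 list is not reported here. Named genes are slam and dia, the 12 highest and 12 lowest ratios that passed without overlap, up to 4 per list by adjusted p, and the 6 most abundant per group. Mhc, Act57B and E(spl)mbeta-HLH were named after their values were seen. Chi-square over its degrees of freedom was 58.7 to 473 between replicates, well past sampling noise, so all libraries were kept as separate. Samples of one number deviated together (correlations of 0.254, 0.391 and 0.151), although Slam 3 and Dia 4 reached 0.278. The labels do not say that numbers pair. The main fit therefore ignored replicate numbers, and they served as blocks in an alternative only. Alternatives were RLE or total scaling, DESeq2 1.42.0, minimums of 10, 200 or none, replicate blocks, each library left out, and 1 minimum added later. Figures used matplotlib 3.10.9.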

Additional observations from a re-analysis of the deposited data

Results flagged for a closer look

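In the 4 Dia antibody libraries, 144 sets of values (gene lists and genes of the text) were examined for 1 library far from the other 3 (gap to the nearest over the range above Dixon's critical value), and 13 were found, where chance gives about 1 in 20. That rate does not hold for CG8157, CR43995 and CR43051, which had counts in 1 of these libraries only, so that their gap was fixed at 1.0. The groups of 3 Slam antibody libraries were not examined. For gene lists, the summed level of mitochondrial ribosomal proteins was low in Dia 4 (2486 CPM against 2837 to 2901 CPM, a gap of 0.845 of the range). That of X counting genes was low in Dia 2 (1085 against 1242 to 1256 CPM, 0.92), and that of ubiquitin ligases was high in Dia 4 (11006 against 6808 to 7016 CPM, 0.951).

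Among genes more abundant with the Slam antibody, Dia 4 was high for Nipped-B (2100 against 510 to 601 CPM, 0.943) and CG14749 (385 against 166 to 194 CPM, 0.869). Dia 1 was high for CG32365 (67.9 against 53.0 to 55.1 CPM, 0.86) and low for E(spl)malpha-BFM (7.95 against 11.0 to 11.4 CPM, 0.879). For CG8157 and CR43995 the only counts were in Dia 4 (0.281 and 0.0468 CPM, 1.0 for both), and for CR43051 in Dia 1 (0.349 CPM, 1.0). Among the rest, Dia 1 was high for CG7185 (21280 against 638 to 3752 CPM, 0.849) and CycB (6874 against 4000 to 4490 CPM, 0.83), and Dia 2 for Fmr1 (292 against 218 to 227 CPM, 0.877).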

How the results depend on the processing

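The counts of higher and lower genes were 772 and 494 with DESeq2 and 782 and 636 with replicate numbers as blocks. Without a minimum level 803 genes were higher, and with scaling by library totals 409 were lower. Leaving out 1 library gave 285 to 562 higher and 24 to 445 lower genes. Genes above 4-fold higher numbered 1083, 168 and 3338 at minimums of 10, 200 and none, 243 with the minimum set in the wild-type GFP-binder libraries (added after the data were seen), and 296 to 471 with 1 library left out. Genes more than 4-fold lower numbered 42 at a minimum of 10, 240 with none, 9 with the added minimum, and 14 to 23 with 1 library left out. The cause of these shifts was not tested, except that lower minimums admit more genes. Of 555 list medians under alternatives, 87 moved by more than the spread between Slam antibody libraries. Of the genes named in the text, the sign turned in 1, Mhc, whose log2 ratio was -2.55 to 0.02 with 1 library left out, the latter without Dia 1 (adjusted p = 0.992 from edgeR). With blocks, HERC2 was the only gene named in the text that lost its call and CG7185 the only one that gained one. Depth limits the scarce transcripts, above all in Dia 3 with 4383704 counts.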

Other observations

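Some families were examined after their values were seen and are described only. Of 24 Osi genes, a family expressed in cuticle-forming cells, 7 were tested and all 7 ratios were positive, with a median log2 ratio of 2.51. Only 2 of the 7 had both group means at 50 or more, and their summed level was 107, 103 and 56.2 CPM in Slam 1 to Slam 3 and 18.9, 32.1, 18 and 8.43 CPM in Dia 1 to Dia 4. Pseudogenes and fragments of ribosomal RNA ran the other way. All 6 that were tested had negative ratios, with a median of -3.80 and 0 passed, and their summed level was 375, 171 and 522 CPM in Slam 1 to Slam 3 and 2186, 884, 14340 and 719 CPM in Dia 1 to Dia 4, so that the shallowest library, Dia 3, stood highest. Genes of the Rab family and of the Mediator complex lay close to all genes, each with a median of -0.23 (21 and 23 genes tested).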
